A study of Mus musculus with 24 samples.

Results

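The 39 genes described here encode the machinery of fatty acid oxidation in liver and targets of the nuclear receptor PPARA. They were chosen by name and known function, with earlier results of these data known. All 39 were found on the array, and all passed the filter on dim probes, among 28482 named genes on the array and 19290 genes tested. By role they comprised 2 regulators, 3 genes of fatty acid uptake and binding, 1 acyl-CoA synthetase, 4 genes of the carnitine shuttle and 10 of mitochondrial β-oxidation. The others were 3 genes of electron transfer, 8 of peroxisomal β-oxidation, 1 ketone body enzyme, 5 acyl-CoA thioesterases and 2 other PPARA targets.

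Mouse liver RNA was hybridised to 24 single-colour Agilent arrays, 4 in each of 6 groups. Untreated females, treated females and treated males were each represented by wild type and by a double knockout (dKO) of the forkhead factors Foxa1 and Foxa2, and no untreated males were analysed here. Treatment meant 20 mg/kg of the carcinogen diethylnitrosamine (DEN), given between day 14 and day 15 of age, and then 8 doses of 3 mg/kg TCPOBOP at intervals of 2 weeks. TCPOBOP is an agonist of the receptor CAR and a tumour promoter in mouse liver. The labels give liver tumor as the tissue of all 6 groups, untreated ones included, and state neither the age at sampling, nor the strain, nor what removed the Foxa genes. Whether the 4 arrays of a group represent separate mice is not stated, so the p-values reflect only the variation among these samples, which may be technical.

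In hepatocytes, long-chain fatty acids are taken up, activated to acyl-CoA, carried into mitochondria as carnitine esters and shortened there by β-oxidation, while peroxisomes shorten very-long-chain and branched acids. The acetyl-CoA that results can be turned into ketone bodies, and thioesterases release free acids from acyl-CoA. PPARA, which binds fatty acids, switches on most of these genes during fasting, and Foxa1 and Foxa2 are forkhead factors that hold hepatocyte enhancers open.

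The targeted genes followed the labels. Foxa1 was well above background on 4 of 4 arrays in each wild-type group and on 0 of 4 in each dKO group, and Foxa2 averaged between 3.69 and 4.45 in wild-type and between -6.06 and -3.99 in dKO groups. Some Foxa2 signal remained well above background in dKO, on 3 of 4 untreated female, 2 of 4 treated female and 2 of 4 treated male arrays. It ran from -7.12 to -1.93 in untreated dKO females. These and all further levels are log2 signals relative to the 75th percentile of the same array, at which the level is 0. The mean of 6 hepatocyte markers was at least 6.39 on every array outside the treated dKO females, where replicates 1 to 4 stood at 6.23, 3.67, 6.74 and 5.86. Replicate 2 thus stood apart from every other array. Counts of oxidation and further pathway genes in single comparisons with this group, and the differences that it ended or moved most, are also given without it. The marker counts are given with it only. Stellate cell and matrix markers averaged 0.34, 0.66 and 0.90 in untreated female, treated female and treated male wild types, and 1.32, 2.96 and 2.71 in the matching dKO groups. In those 3 comparisons 4, 7 and 4 of these 7 markers were higher in dKO, and 4, 5 and 6 of 6 bile duct markers. The bile duct means ran from -2.16 to -0.06 on the wild-type arrays and from -0.31 to 1.94 on the dKO arrays. Of the 6 hepatocyte markers 1, 3 and 0 were lower in dKO, and of the 6 macrophage markers 2, 2 and 0 were higher. In the same order 1, 2 and 2 of 3 muscle markers were higher, 2, 1 and 1 of 5 adipocyte markers were higher and 0, 1 and 0 lower, and 0, 2 and 1 of 5 endothelial markers were lower. With treatment 4 of 6 macrophage, 2 of 6 bile duct, 2 of 5 adipocyte, 1 of 3 muscle and 0 of 7 stellate markers were higher in wild-type females, and 0 of 6 hepatocyte markers lower. In dKO females 6 of 7 stellate, 3 of 6 bile duct, 2 of 6 macrophage, 1 of 5 adipocyte and 1 of 3 muscle markers were higher with treatment. Of the hepatocyte markers 3 of 6 were lower there, as were 3 of 5 adipocyte and 1 of 5 endothelial markers. Treated dKO female 2 was the lowest of its group in each hepatocyte marker. It read 0.97 in Cps1 beside 5.25 to 6.46, 1.60 in Tat beside 4.60 to 5.84, and 2.96 in Cyp2e1 beside 6.35 to 7.29. How far the marker counts of treated dKO females rest on this array was not tested. The adipocyte mean was spread most in untreated dKO females, from -5.37 to -0.69, and treated wild-type females, from -6.29 to -1.91. The part of these cell types in the differences below was not tested, and in bulk RNA fewer hepatocytes and less RNA per hepatocyte cannot be told apart.

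Averaged over the 39 genes, the level was highest in untreated wild-type females, at 5.11 ± 0.18 (SD, n = 4). It was 4.50 ± 0.08 in untreated dKO females, 4.22 ± 0.21 in treated wild-type females and 4.28 ± 0.23 in treated wild-type males. Treated dKO males and females had the lowest means, 3.74 ± 0.09 and 3.77 ± 0.19. The 4 untreated wild-type arrays lay above all 4 untreated dKO arrays, and the treated wild-type males lay above the treated dKO males. The treated females overlapped, since wild-type replicate 3 (3.92) fell below dKO replicate 3 (4.00). In each of the 6 groups replicate 4 lay between the lowest and highest of replicates 1 to 3. The same held for its hepatocyte, stellate and bile duct marker means. Whether replicate 4 is a sample independent of the others was not tested. If it is not, the SDs and p-values here rest on fewer than 4 samples a group. The lowest array was treated dKO female 2, at 3.54. Replicate 2 of these females was also lowest in the hepatocyte marker mean and highest in the stellate marker mean.

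**Figure D1:**
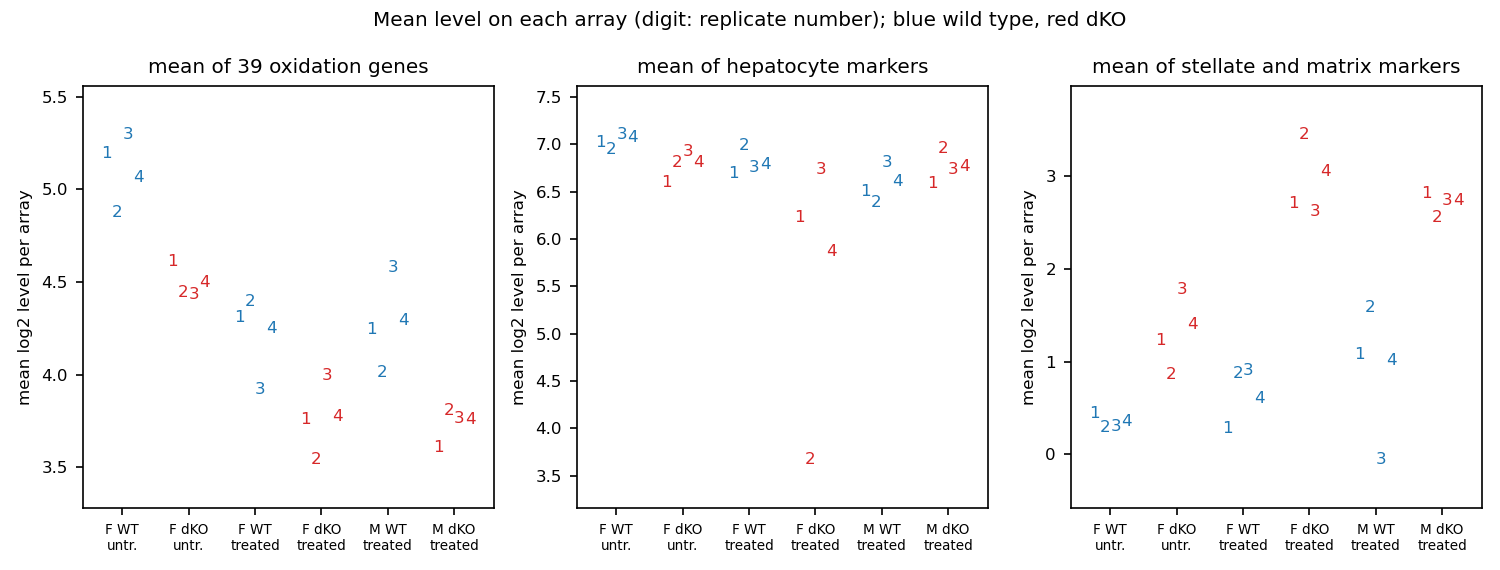
Mean log2 level per array (0 is the array's 75th percentile) of the 39 oxidation genes, of 6 hepatocyte markers and of 7 stellate cell and matrix markers, by group (F female, M male, untr. untreated). Each digit is 1 array and gives its replicate number, blue for wild type and red for dKO. The mean of the oxidation genes is 5.11 in untreated wild-type females and 3.74 in treated dKO males, while 1 treated dKO female stands far below all other arrays in the hepatocyte panel.

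The comparison of dKO with wild type asked how the loss of Foxa1 and Foxa2 changed these genes. In untreated females 15 of the 39 genes were lower in dKO and 0 higher, at a Benjamini-Hochberg adjusted p under 0.05 in the limma fit of all genes tested. Of all genes tested 9.75% were called, 4.59% lower and 5.15% higher. The median log2 difference was -0.42 for the 39 genes and -0.04 for all genes, and of the 4823 genes with the highest mean levels, which include 33 of the 39, 6.7% were lower. The 15 genes were Acot1, Acot2, Pex11a, Ech1, Decr1, Decr2, Acadl, Eci2, Slc25a20, Hadhb, Acadvl, Eci1, Hadha, Acads and Hsd17b4. For 23 of the 39 genes all 4 dKO arrays lay below all 4 wild-type arrays, as they did for 11.4% of all genes. Within the 2 slides that held both groups the median of the 39 was -0.58 and -0.76. The count depended on single arrays, being 8 or 9 without any one of wild-type replicates 1, 3 and 4 or dKO replicates 2, 3 and 4. Acot1, Ech1, Eci2, Acadl, Decr1 and Hadhb stayed called under every alternative tried, and Acot2 under all but the filter for signal above background on all 24 arrays, which it did not pass.

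In treated females 17 genes were lower in dKO and 2 higher, against 29.8% of all genes called, 16.4% lower and 13.4% higher, and the median was -0.45 against -0.07. Of the 4823 genes with the highest levels 27.9% were lower. Without dKO replicate 2, 11 genes were lower and 0 higher, against 10.7% and 9.83% of all genes, and the median was -0.32. Without replicates 2 and 4, the arrays with the lowest hepatocyte marker means, 6 genes were lower, 0 higher, and the median was -0.27. The share of all genes called in that fit is not given here, so these 6 cannot be set beside it. In treated males 14 genes were lower and 0 higher, against 25.2% of all genes called, 10.9% lower and 14.4% higher, and the median was -0.34 against 0.04. Of the 4823 genes with the highest levels 16.1% were lower. Within slides the median was -0.51 and -0.54 in treated females and -0.42, -0.68 and -0.05 in treated males. Array position on the slide was tied to these groups: treated dKO females were all at position 4 and treated wild-type females at 1 or 2, and treated wild-type males were all at position 1 and dKO males at 3 or 4. With position as a term in the fit, 0 oxidation genes were called in treated females and 1, Acot1, in treated males. In untreated females, whose arrays shared positions 2 and 3, 7 were called. Calls among all genes fell in that fit from 5745 to 22 in treated females and from 4868 to 134 in treated males. The loss of calls was thus not particular to the oxidation genes. Their medians were then -0.11 in treated females and 0.01 in treated males.

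Across the 3 comparisons 31 of the 39 genes were lower in dKO at least once, against 24.8% of all genes, and Hsd17b4, Decr2 and Acot1 in each, against 1.22%. Ppargc1a, Slc27a2, Fabp1, Cpt1a, Etfdh, Bdh1 and Vnn1 passed the test in none. The difference was negative in all 3 comparisons for 27 genes and for 22.5% of all genes.

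**Figure D2:**
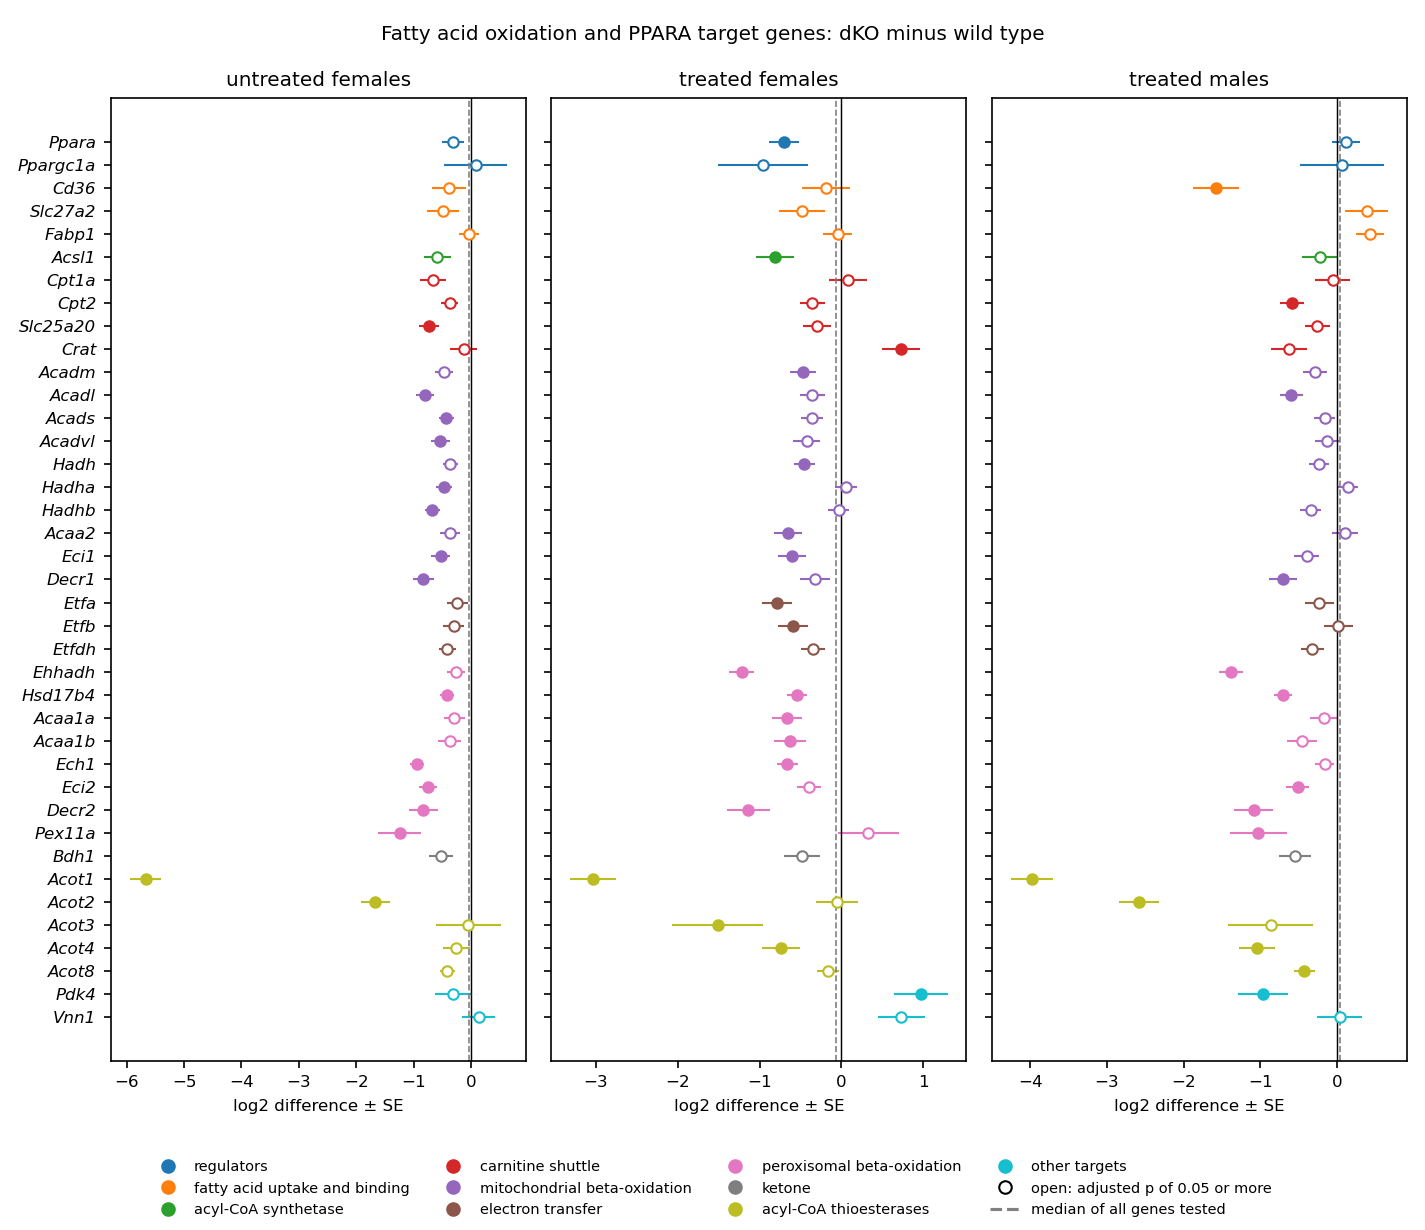
Log2 difference between dKO and wild type (points) with its standard error (bars) for the 39 genes, with untreated females on the left, then treated females, then treated males, and 4 arrays a group. Filled points passed an adjusted p of 0.05, the dashed line is the median of all genes tested, and the horizontal scale differs between panels. Most points lie left of 0, Acot1 farthest, at -5.67, -3.04 and -3.98.

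The acyl-CoA thioesterases of the cluster on chromosome 12 held the largest differences. These enzymes hydrolyse acyl-CoA to free acid and CoA, Acot1 in the cytosol, Acot2 in mitochondria and Acot3 and Acot4 in peroxisomes. Their probes lay at chr12:85358452-85358511 (Acot1), chr12:85334071-85334130 (Acot2), chr12:85399588-85399647 (Acot3) and chr12:85384821-85384880 (Acot4) in the coordinates of the array files (mm9). The genes resemble one another in sequence, so that how far a probe also bound a neighbour's transcript was not tested. Because the neighbours differed so much, their upstream stretches are shown, the 250 bases before the RefSeq start of each gene on the plus strand of GRCm38.p6, together with that of Fabp1, which is discussed after them. Capitals mark matches to the motifs searched, on either strand: the PPAR element, which is a pair of AGGTCA hexamers with 1 base between them, its looser form with AGGNCA hexamers, and the forkhead cores TGTTTAC and TGTTTGC.
Acot1: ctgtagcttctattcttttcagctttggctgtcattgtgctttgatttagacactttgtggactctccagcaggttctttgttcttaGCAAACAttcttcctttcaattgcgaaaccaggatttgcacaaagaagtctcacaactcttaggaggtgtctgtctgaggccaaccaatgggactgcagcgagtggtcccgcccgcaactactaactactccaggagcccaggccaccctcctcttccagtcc
Acot2: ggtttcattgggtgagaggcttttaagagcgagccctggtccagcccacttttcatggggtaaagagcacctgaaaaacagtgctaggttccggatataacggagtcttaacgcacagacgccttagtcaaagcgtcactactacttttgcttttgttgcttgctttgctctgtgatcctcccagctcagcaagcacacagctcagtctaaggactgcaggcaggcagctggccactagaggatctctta
Acot3: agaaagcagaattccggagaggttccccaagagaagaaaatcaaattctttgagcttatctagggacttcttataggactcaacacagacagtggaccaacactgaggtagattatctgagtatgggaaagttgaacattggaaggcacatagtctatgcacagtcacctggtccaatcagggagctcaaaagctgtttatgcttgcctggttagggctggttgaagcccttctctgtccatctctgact
Acot4: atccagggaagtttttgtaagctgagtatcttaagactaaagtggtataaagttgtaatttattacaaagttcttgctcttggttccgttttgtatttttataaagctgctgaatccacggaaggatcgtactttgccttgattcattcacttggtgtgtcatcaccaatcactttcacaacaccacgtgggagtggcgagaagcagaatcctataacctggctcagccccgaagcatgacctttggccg
Fabp1: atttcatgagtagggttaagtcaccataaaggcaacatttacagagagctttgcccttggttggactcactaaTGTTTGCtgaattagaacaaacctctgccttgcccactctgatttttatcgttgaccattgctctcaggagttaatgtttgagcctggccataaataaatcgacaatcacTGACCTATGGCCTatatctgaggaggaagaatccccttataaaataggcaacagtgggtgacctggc
The windows are chr12:84009252-84009501, chr12:83987611-83987860, chr12:84051894-84052143, chr12:84038129-84038378 and chr6:71199629-71199878. Of the 4 thioesterase windows, the one of Acot1 held a match, GCAAACA, the reverse complement of the TGTTTGC core, whose first base is at position -163 from the start. Fabp1 held TGTTTGC at -177 and the looser PPAR element, as TGACCTATGGCCT, at -67. Windows were found for 34 of the 39 genes, of which 0 held the PPAR element (0.0407% of all genes with a window), 1 the looser form (0.4%), 0 TGTTTAC (3.54%) and 3 TGTTTGC (4.93%), namely Acot1, Fabp1 and Slc27a2. The bare hexamer AGGTCA stood in 7 of the 34 windows and in 15.8% of all genes' windows. A match describes letters and no binding, and an absent match says nothing of sites outside the window.

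Acot1 read 5.66, 5.28, 5.34 and 5.39 on the untreated wild-type female arrays and 0.06, -0.68, -0.16 and -0.24 on the untreated dKO arrays. The groups lay far apart, a 51.0-fold lower signal in dKO (log2 difference -5.67 ± 0.28 SE, adjusted p = 7.15e-11). Treated wild-type females read 3.56, 3.07, 2.63 and 3.28, and treated dKO females 0.04, 0.87, -0.76 and 0.23. The treated males read 3.32, 3.08, 4.15 and 3.53 in wild type and -0.22, -0.74, -0.40 and -0.48 in dKO. All 12 dKO arrays thus lay below all 12 wild-type arrays, and the differences were -3.04 in treated females (8.21-fold, adjusted p = 3.89e-07) and -3.98 in treated males (15.8-fold, adjusted p = 1.01e-08). In the fit with array position the female difference was -2.85 with an adjusted p of 0.108, and the male difference -3.50 with 0.0213.

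Acot2, the mitochondrial neighbour, behaved differently between the sexes. Its untreated female arrays read -0.56, -1.04, -0.26 and -0.47 in wild type and -2.23, -2.35, -2.19 and -2.22 in dKO, with no overlap (-1.67 ± 0.26, adjusted p = 0.00026). Treated females overlapped, from -2.39 to -1.84 in wild type and from -2.62 to -1.49 in dKO, and differed by -0.06 ± 0.26 (-0.25 without dKO replicate 2). Treated males read -2.04, -2.17, -0.87 and -1.70 in wild type and -4.40, -4.60, -3.91 and -4.21 in dKO, a 5.99-fold lower signal (adjusted p = 5.22e-07). The male dKO signal was near the floor, being well above background on 3 of 4 arrays. The genotype difference itself differed between the treated sexes by -2.53 ± 0.37 (adjusted p = 0.00072). It stayed called under every alternative in which Acot2 was tested, which leaves out the filter for signal on all 24 arrays.

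Acot3 and Acot4, the peroxisomal enzymes, were not called in untreated females, at -0.04 ± 0.56 and -0.25 ± 0.23. Acot3 read 2.92, 2.34, 0.54 and 2.36 in treated wild-type females, 0.24, -1.26, 2.30 and 0.83 in treated dKO females, and between -2.20 and 0.20 in treated males of both genotypes. The female groups overlapped, and the call (-1.51 ± 0.56, adjusted p = 0.0471) was lost without any one of wild-type replicates 1, 2 and 4 or dKO replicates 1, 2 and 4, at -1.61 to -0.92. Within each genotype all treated males lay below all treated females in Acot3. The difference was -2.97 ± 0.56 in wild type (adjusted p = 0.003) and -2.32 ± 0.56 in dKO (adjusted p = 0.00704). Across genotypes the sexes overlapped, since dKO female 2, at -1.26, lay below wild-type males 3 and 4, at 0.20 and -0.74. Acot4 differed between genotypes by -0.74 ± 0.23 in treated females (adjusted p = 0.0216) and by -1.04 ± 0.23 in treated males (adjusted p = 0.0023). The male dKO arrays (0.40 to 0.94) lay below the wild-type ones (1.28 to 2.22), whereas the females overlapped, and their call was lost without any one of wild-type replicates 1, 2 and 4 or dKO replicates 2 and 4 (-0.72 to -0.55). Acot8, a peroxisomal thioesterase of another family on chromosome 2, was lower in dKO males (-0.42 ± 0.13, adjusted p = 0.0233). That call was lost without wild-type replicate 3 or dKO replicate 1 (-0.37 to -0.31).

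**Figure D3:**
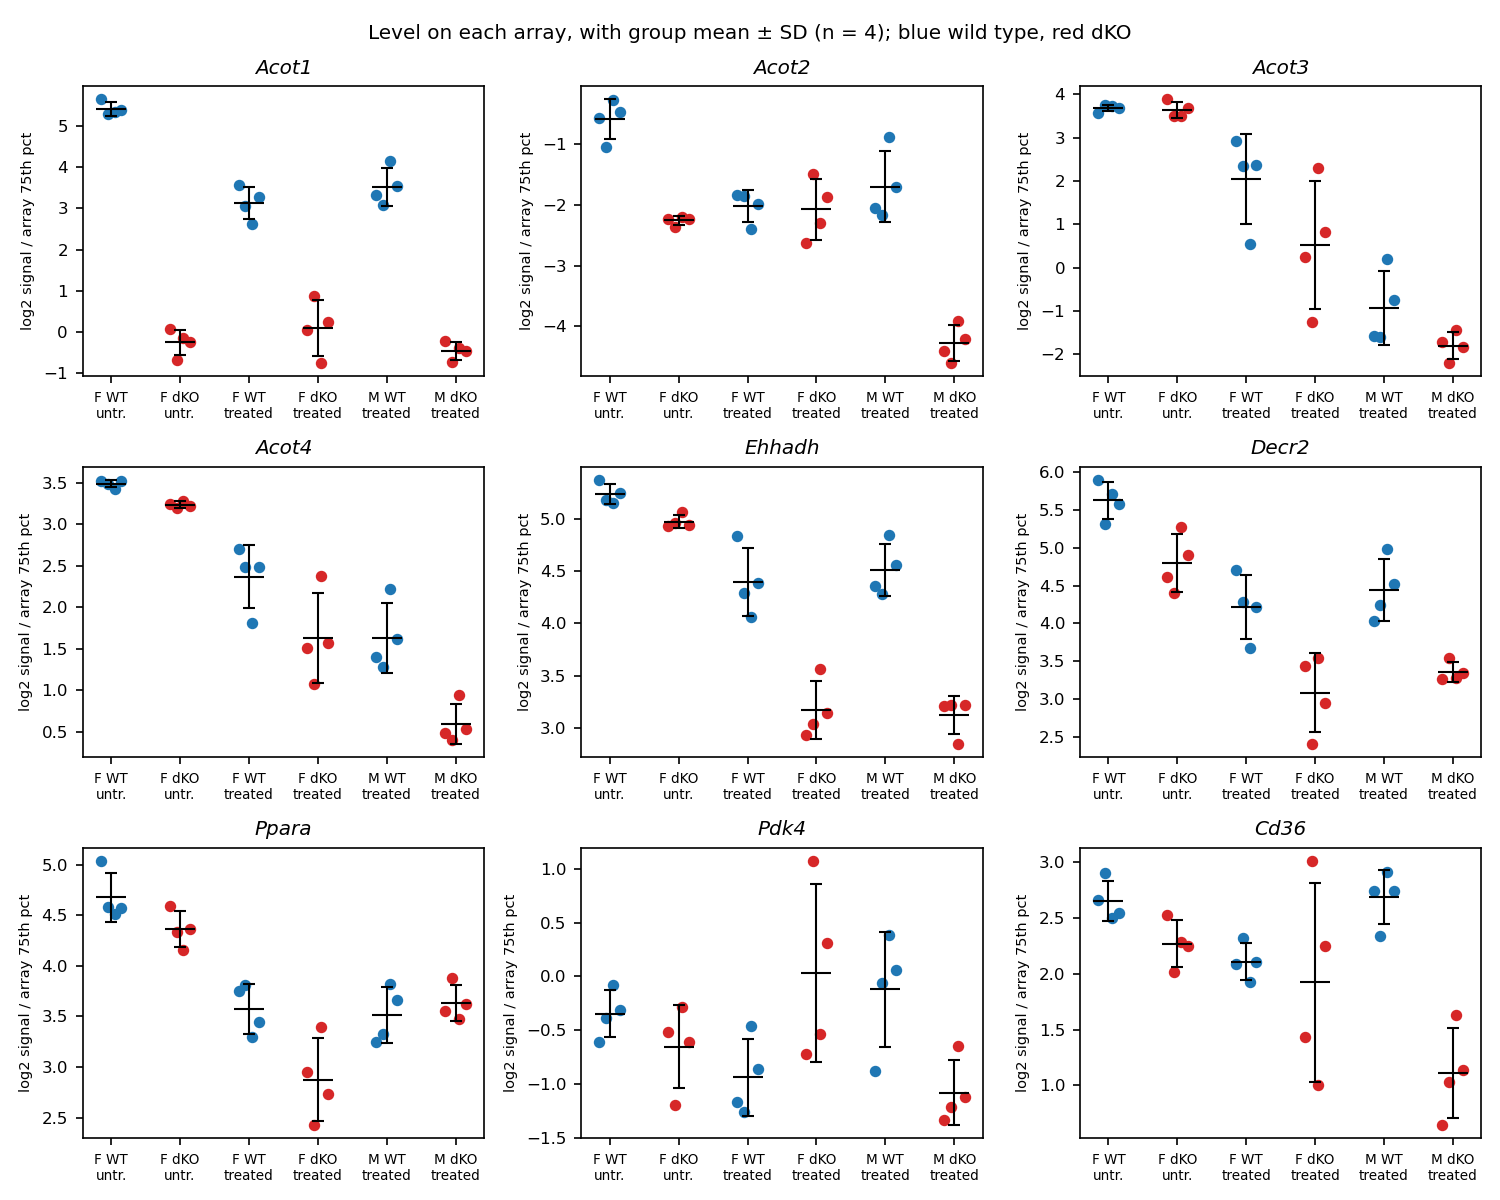
Log2 level (0 is the array's 75th percentile) of 9 genes on each of the 24 arrays, blue for wild type and red for dKO, with the mean and SD of each group of 4 in black. The scale differs between panels. Acot1 is low in every dKO group, Acot2 lowest in treated dKO males, Acot3 low in treated males of both genotypes, and Pdk4 and Cd36 widely spread in treated dKO females.

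Of the 8 genes of peroxisomal β-oxidation 5 were lower in untreated dKO females, 6 in treated dKO females and 5 in treated dKO males, and 0 were higher, with medians of -0.58, -0.65 and -0.61. Of all genes 4.59%, 16.4% and 10.9% were lower, and of the 4823 genes with the highest levels 6.7%, 27.9% and 16.1%. Without dKO replicate 2 the treated female count was 6 and the median -0.57, against 10.7% of all genes lower. Ehhadh, the bifunctional hydratase and dehydrogenase, read 5.37, 5.18, 5.15 and 5.24 in untreated wild-type and 4.92, 4.96, 5.06 and 4.94 in untreated dKO females. The ranges were separate, but the difference of -0.26 ± 0.16 did not pass the test (adjusted p = 0.317). Treated females read 4.84, 4.29, 4.06 and 4.39 in wild type and 2.94, 3.04, 3.57 and 3.15 in dKO (-1.22 ± 0.16, adjusted p = 1.61e-05). Treated males read 4.36, 4.28, 4.84 and 4.55 in wild type and 3.21, 3.22, 2.85 and 3.22 in dKO (-1.38 ± 0.16, adjusted p = 2.38e-06). Ehhadh thus separated fully in both treated comparisons, by 2.33-fold and 2.61-fold, and the female difference was -1.17 without dKO replicate 2.

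Decr2, the peroxisomal dienoyl-CoA reductase needed for polyunsaturated acids, was lower in dKO by -0.83 ± 0.26, -1.14 ± 0.26 and -1.09 ± 0.26 in the same order of comparisons. Its ranges did not overlap in any of them: 5.32 to 5.90 against 4.40 to 5.28, 3.67 to 4.71 against 2.40 to 3.55, and 4.03 to 4.98 against 3.27 to 3.55, wild type first. The untreated call (adjusted p = 0.0461) was lost without any one of wild-type replicates 1, 3 and 4 or dKO replicates 1, 2 and 4 (-0.87 to -0.70). Hsd17b4, the second bifunctional enzyme, differed by -0.42, -0.54 and -0.70, each ± 0.12, with the groups apart each time. Its untreated call was lost without any one of wild-type replicates 1, 3 and 4 or dKO replicates 2, 3 and 4 (-0.44 to -0.35). Ech1, a dienoyl-CoA isomerase, read 4.72 to 5.13 in untreated wild-type and 3.85 to 4.09 in untreated dKO females, a 1.92-fold lower signal (adjusted p = 6.39e-05). It was lower in treated dKO females too (-0.66 ± 0.13, adjusted p = 0.000818), while in males it differed by -0.16 ± 0.13 with overlapping arrays.

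Pex11a, which promotes peroxisome division, was lower in dKO by -1.24 ± 0.37 in untreated females and -1.03 ± 0.37 in treated males, at adjusted p of 0.0391 and 0.0483. Each call was lost without any one of 6 arrays, at -1.28 to -1.03 and -1.05 to -0.89, namely replicates 1, 3 and 4 of both male groups and, in untreated females, wild-type replicates 1, 3 and 4 and dKO replicates 2, 3 and 4. Treated dKO females read 4.52, 6.76, 4.58 and 5.74, so that replicate 2 exceeded every treated wild-type female (4.80 to 5.52), and the difference was 0.33 with it and -0.13 without it. The thiolases Acaa1a and Acaa1b, near-identical copies whose signals may not be separable, were lower in treated dKO females (-0.66 ± 0.18 and -0.63 ± 0.20). The Acaa1b call was lost without wild-type replicate 2 or dKO replicate 1 (-0.60 to -0.45). Eci2, an enoyl-CoA isomerase, was lower in untreated females (-0.75 ± 0.15) and treated males (-0.51 ± 0.15), the male call being lost without wild-type or dKO replicate 1 (-0.46 to -0.42).

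The 17 genes of the mitochondrial route run from the carnitine shuttle to electron transfer. In untreated females 8 were lower in dKO and 0 higher, with a median of -0.47. In treated females 6 were lower and 1 higher (median -0.36), and in treated males 3 lower and 0 higher (median -0.25). The male share, 3 of 17, was near the 16.1% lower among the 4823 genes with the highest levels. In untreated and treated females 6.7% and 27.9% of those genes were lower. Without dKO replicate 2 the treated female count was 3 lower and 0 higher, against 10.7% and 9.83% of all genes. Cpt1a, which makes the acylcarnitines that enter mitochondria and limits the flow into β-oxidation, read 5.26, 4.82, 5.48 and 4.98 in untreated wild-type and 4.82, 4.54, 4.08 and 4.46 in untreated dKO females. The groups met at 4.82, and the difference of -0.66 ± 0.23 did not pass the test (adjusted p = 0.0778). In treated females and males Cpt1a differed by 0.08 ± 0.23 and -0.06 ± 0.23, the female difference being 0.39 without dKO replicate 2 (adjusted p = 0.117). Slc25a20, the carrier that exchanges acylcarnitine for carnitine, was lower in untreated dKO females, 2.25 to 2.52 against 2.93 to 3.29 (-0.73 ± 0.17, adjusted p = 0.00766).

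Within mitochondrial β-oxidation proper, 7 of 10 genes were lower in untreated dKO females, 4 in treated dKO females and 2 in treated dKO males, and 0 were higher. Of all genes 4.59%, 16.4% and 10.9% were lower. Among the 4823 genes with the highest levels the shares were 6.7%, 27.9% and 16.1%, and the male count was near the last. Without dKO replicate 2 the treated female count was 2, against 10.7% of all genes. Acadl, the long-chain acyl-CoA dehydrogenase, read 4.01, 3.88, 4.05 and 4.00 in untreated wild-type and 3.02, 3.41, 3.16 and 3.14 in untreated dKO females. It was also lower in treated dKO males, 2.41 to 2.57 against 2.67 to 3.40 (-0.59 ± 0.15, adjusted p = 0.00715), and overlapped in treated females (-0.36 ± 0.15, adjusted p = 0.0834, and -0.20 without dKO replicate 2). Decr1, the mitochondrial dienoyl-CoA reductase, followed the same order, at -0.83, -0.70 and -0.32 in untreated females, treated males and treated females, the last not called. Hadhb, the thiolase subunit of the trifunctional protein, was lower in untreated dKO females by -0.67 ± 0.13 and differed by -0.03 ± 0.13 in treated ones. Hadha, the other subunit, was called in untreated females (-0.47 ± 0.13), a call lost without wild-type replicates 1 or 3 or any dKO replicate (-0.49 to -0.32). The calls of Acadvl, Acads and Eci1 in untreated females had adjusted p from 0.0441 to 0.0497 and were lost without wild-type replicates 1, 3 or 4 or any dKO replicate. The differences were then -0.59 to -0.43, -0.47 to -0.27 and -0.60 to -0.41. The largest mitochondrial difference in treated females was that of Etfa, which passes electrons from the dehydrogenases to the respiratory chain (-0.79 ± 0.19, adjusted p = 0.00417), where replicate 2 was again lowest, at 3.88. The treated female calls of Hadh (-0.34 without it), Acadm and Etfb were lost without dKO replicate 2, those of Acadm and Etfb also without dKO replicate 4 or wild-type replicate 2, and that of Acadm without wild-type replicates 1 or 4 (-0.47 to -0.33 for Acadm and -0.55 to -0.35 for Etfb).

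Bdh1, which interconverts the ketone bodies acetoacetate and β-hydroxybutyrate, differed by -0.52, -0.48 and -0.55, each ± 0.21, and passed the test in no genotype comparison. The treated female difference was -0.22 without dKO replicate 2, which read 5.03. The male ranges were apart (6.34 to 6.67 in wild type and 5.76 to 6.17 in dKO, adjusted p = 0.0688).

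Of the regulators Ppara was lower in dKO in 1 of the 3 comparisons. It read 5.04, 4.59, 4.51 and 4.58 in untreated wild-type and 4.59, 4.34, 4.16 and 4.37 in untreated dKO females (-0.31 ± 0.19, adjusted p = 0.317). The groups overlapped from 4.51 to 4.59. Treated females read 3.75, 3.81, 3.30 and 3.45 in wild type and 2.95, 2.42, 3.40 and 2.73 in dKO (-0.70 ± 0.19, adjusted p = 0.00802). Treated males overlapped, 3.25, 3.32, 3.83 and 3.66 against 3.55, 3.88, 3.48 and 3.62, and differed by 0.12 ± 0.19. Without treated dKO females 2 and 4 the female Ppara call was lost, at -0.41 (adjusted p = 0.218). Ppargc1a, a coactivator of PPARA that drives mitochondrial genes, was called in no genotype comparison. It read 1.51, 1.63, 0.80 and 0.97 in treated wild-type and 1.66, -2.52, 1.11 and 0.83 in treated dKO females, so that replicate 2 alone set the mean apart, and the difference was -0.96 with it and -0.03 without it.

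Among the genes of uptake and activation, Cd36, a fatty acid translocase, was lower in treated dKO males. The arrays read 2.75, 2.34, 2.92 and 2.75 in wild type and 0.64, 1.03, 1.63 and 1.14 in dKO, without overlap (-1.58 ± 0.29, adjusted p = 0.000504). In treated females Cd36 read 2.08, 2.33, 1.92 and 2.11 in wild type and 1.44, 3.01, 1.0 and 2.25 in dKO (-0.19 ± 0.29, and -0.55 without replicate 2, adjusted p = 0.116), with replicates 2 and 4 the high arrays. Acsl1, the main hepatic long-chain acyl-CoA synthetase, was lower in treated dKO females (-0.81 ± 0.23, adjusted p = 0.0136), a call lost without dKO replicate 2 (-0.55). Fabp1, the abundant liver fatty acid binding protein, differed by -0.03, -0.05 and 0.43, each ± 0.18, and was called in no genotype comparison. Slc27a2, a transporter and very-long-chain acyl-CoA synthetase, was not called either, and its treated dKO females read 6.36, 4.66, 6.47 and 5.76 (a difference of -0.48, and -0.10 without replicate 2).

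Pdk4 and Crat were the 2 genes higher in treated dKO females. Pdk4, the kinase that shuts pyruvate out of the citric acid cycle, read -1.17, -1.26, -0.46 and -0.86 in wild type and -0.73, 1.07, -0.54 and 0.31 in dKO (0.97 ± 0.33, adjusted p = 0.0313). Crat, carnitine acetyltransferase, read 1.95, 1.74, 1.49 and 1.68 in wild type and 1.99, 3.07, 2.13 and 2.58 in dKO (0.73 ± 0.23, adjusted p = 0.0252). For both genes dKO replicates 2 and 4 were the highest, and the calls were lost without either (down to 0.62 for Pdk4 and 0.52 for Crat). Replicate 4 lay between replicate 2 and the other arrays each time, so these need not be 2 separate deviations. They were also lost without any one of wild-type replicates 1, 2 and 4 for Pdk4 and 3 and 4 for Crat. In treated males Pdk4 was lower in dKO (-0.96 ± 0.33, adjusted p = 0.0366), with overlapping arrays and a call lost without any one of wild-type replicates 2, 3 and 4 or dKO replicates 1, 2 and 4 (-0.95 to -0.79). Vnn1, a pantetheinase and PPARA target, was not called (0.73 ± 0.29, adjusted p = 0.0619), and dKO replicate 2 was again its highest treated female array, at 4.75.

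The treatment comparison set treated beside untreated females in each genotype. Age at sampling is not stated, so a difference in age or tumour content cannot be told apart from the treatment itself. In wild-type females 33 of the 39 genes were lower after treatment and 0 higher. Of all genes 17.1% were called, 8.67% lower and 8.46% higher. Among the 4823 genes with the highest levels the share lower was 13.8%. The median of the 39 was -0.84 against -0.06 for all genes, and all 39 differences were negative. Within each of the 3 slides that held both groups all 39 were negative again (medians -0.78, -0.76 and -0.89). The 6 genes not called were Ppargc1a, Cd36, Fabp1, Crat, Acaa1a and Pdk4. For 31 genes the treated arrays all lay below the untreated ones, as they did for 14.5% of all genes. Without treated replicate 3, 24 genes were called. In dKO females 27 genes were lower and 0 higher, with a median of -0.69 against -0.07. Of all genes 37.8% were called, 21.6% lower and 16.2% higher. Of the 4823 with the highest levels 36.5% were lower. Without treated dKO replicate 2, 25 of the 39 genes were lower and 0 higher. Of all genes 16.5% were then lower and 12.6% higher. Lower in both genotypes were 25 of the 39 genes and 5.23% of all genes. With array position in the fit 2 of the 39 genes stayed called in dKO females, while calls among all genes fell from 7290 to 285.

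By role, 16 of 17 mitochondrial genes, 7 of 8 peroxisomal genes and 5 of 5 thioesterases were lower in treated than in untreated wild-type females. Their medians were -0.69, -0.86 and -1.43. Of all genes 8.67% were lower, and of the 4823 with the highest levels 13.8%. In dKO females the counts were 12, 7 and 3 and the medians -0.67, -0.78 and -0.48. Of all genes 21.6% were lower, and of the 4823 with the highest levels 36.5%. Without treated dKO replicate 2 the counts were 10, 7 and 3, against 16.5% of all genes. The wild-type call of Acot3 was lost without any one of 7 arrays, all but treated replicate 1 (-1.75 to -1.14), and that of Pex11a without treated replicate 3 or untreated replicate 1 (-1.28 to -1.25). Acot1 fell by 2.28 on the log2 scale in wild type (4.87-fold, adjusted p = 2.25e-05) and differed by 0.35 ± 0.28 in dKO, where it was low before treatment. Ppara fell 2.14-fold in wild type (adjusted p = 0.000561) and 2.81-fold in dKO (adjusted p = 1.62e-05), with no overlap in either. Cpt1a fell in wild type (-1.19 ± 0.23, adjusted p = 0.0017), from 4.82 or more to 4.12 or less, and was not called in dKO (-0.46 ± 0.23). Bdh1 fell in both, by 0.76 and 0.72 on the log2 scale. The wild-type call was lost without treated replicate 3 or untreated replicates 1 or 3 (-0.70 to -0.64), and the dKO call without treated replicate 2 (-0.46).

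Acot3 fell by 3.11 ± 0.56 on the log2 scale in dKO females (8.63-fold, adjusted p = 0.000389), from 3.50 to 3.88 on the untreated arrays to -1.26 to 2.30 on the treated ones. Ehhadh fell by 1.80 ± 0.16 in dKO and by 0.84 ± 0.16 in wild type. Decr2 fell by 1.71 and 1.41, and Acot4 by 1.60 and 1.12, in the same order. The Ppargc1a call in dKO (-1.62 ± 0.55, adjusted p = 0.0249) rested in size on treated replicate 2, which read -2.52 beside 0.83 to 1.66. The difference was -0.69 without it (adjusted p = 0.0257), and the call was lost without untreated replicate 4 (-1.59).

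**Figure D4:**
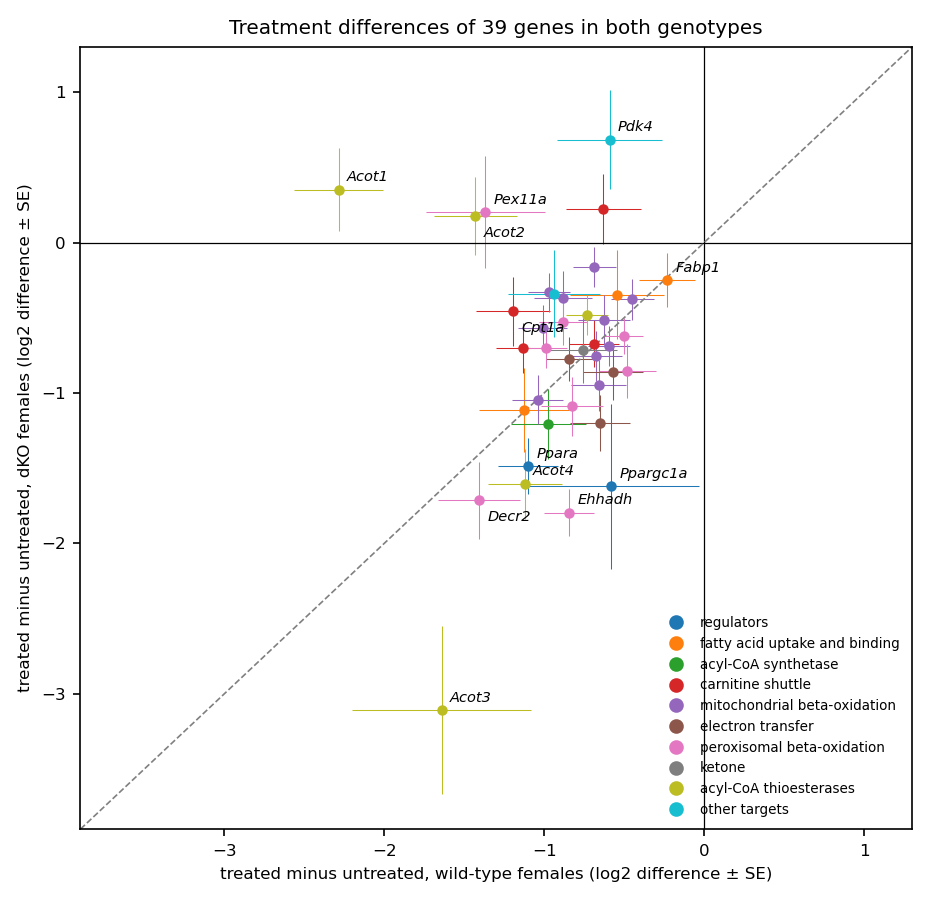
Log2 difference between treated and untreated females in wild type (horizontal) and dKO (vertical) for the 39 genes, coloured by role, with standard errors as bars. The dashed line marks equal differences, and the 2 axes rest on different arrays. All 39 points lie left of 0. Acot1, Acot2, Pex11a, Crat and Pdk4 lie above 0 on the vertical axis, and none of these 5 was called there.

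Whether the genotype difference changed with treatment was tested by the interaction in females, which called 3 of the 39 genes, 2 positive and 1 negative, against 5.13% of all genes (2.45% positive and 2.68% negative). The Acot1 difference shrank by 2.64 ± 0.39 (adjusted p = 0.00133) and that of Acot2 by 1.61 ± 0.37 (adjusted p = 0.0169), whereas that of Ehhadh grew by -0.95 ± 0.22 (adjusted p = 0.0186). The 3 calls were lost with array position in the fit, where calls among all genes fell from 989 to 4. Without treated dKO replicates 2 and 4 the calls of Acot2 (1.22, adjusted p = 0.103) and Ehhadh (-0.88, adjusted p = 0.0864) were lost, while that of Acot1 stayed (2.18, adjusted p = 0.00713). No single array left out ended any of the 3, and the count was 5 or 6 without untreated wild-type replicate 2 or treated dKO replicates 1 or 3. Without treated dKO replicate 2, 3 genes were positive and 1 negative, against 1.79% and 2.15% of all genes. Cpt1a was then called as well, at 1.05 (adjusted p = 0.0178), beside 0.74 (adjusted p = 0.197) with all arrays.

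Sex was compared among treated mice. In wild type 1 gene, Eci2, was higher in males (0.57 ± 0.15, adjusted p = 0.025) and 1, Acot3, lower, against 6.07% of all genes called, 3.27% higher and 2.8% lower. The Eci2 call was lost without any one of replicates 1, 3 and 4 of either sex (0.48 to 0.58), and the count was 1 without replicates 1 or 4 of either sex. In dKO 8 genes were higher in males (Slc27a2, Acsl1, Acaa2, Ppara, Acaa1a, Fabp1, Eci2 and Ech1) and 5 lower (Acot3, Acot2, Crat, Pdk4 and Acot4), against 20.5% of all genes called, 12.5% higher and 7.97% lower. Without dKO male replicate 2, or without dKO female replicate 2 or 4, 6 genes were called. Without dKO female replicate 2 these were 2 higher and 4 lower in males, against 7.56% and 4.77% of all genes. Without both females 3 were called, all lower in males, and 1065 of all 19290 genes were called. The calls of Slc27a2, Fabp1, Acsl1, Acaa1a, Ech1, Eci2 and Pdk4 were each lost without male replicate 2, female replicate 2 or female replicate 4. The differences that lost the call were 0.42 to 0.54 for Fabp1, 0.36 to 0.42 for Ech1, 0.38 to 0.46 for Eci2, 0.43 to 0.60 for Acaa1a, 0.54 to 0.79 for Acsl1, 0.46 to 0.89 for Slc27a2 and -1.07 to -0.77 for Pdk4. The median of the 39 was 0.19 with all arrays and -0.02 without these 2 females. The genotype difference itself differed between the sexes for 6 genes, against 12.6% of all genes (7.33% positive and 5.24% negative). It was more negative in males for Acot2, Pdk4 (-1.93 ± 0.46, adjusted p = 0.0116), Cd36 (-1.39 ± 0.42, adjusted p = 0.0338) and Crat (-1.35 ± 0.33, adjusted p = 0.0132). It was more positive for Ppara (0.82 ± 0.26, adjusted p = 0.0457) and Acaa2 (0.76 ± 0.24, adjusted p = 0.0441). Without treated dKO females 2 and 4 the count was 1, Acot2. It was 3 without any one of replicates 1 and 4 of wild-type females, replicate 4 of wild-type males, replicates 2 and 4 of dKO males or replicates 2 and 4 of dKO females, and 11 without dKO female replicate 3. Without dKO female replicate 2 these 3 were all negative, while 5.19% of all genes were positive and 4.03% negative. The calls of Ppara, Acaa2 and Cd36 were each lost without any one of 10 or 11 arrays (0.67 to 0.87, 0.56 to 0.76 and -1.40 to -1.03).

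Among further genes of these pathways 103 were tested. In untreated females 13 were lower in dKO and 3 higher, in treated females 42 and 15, and in treated males 29 and 8, with medians of -0.19, -0.36 and -0.25. The shares of all genes lower and higher were 4.59% and 5.15%, 16.4% and 13.4%, and 10.9% and 14.4%. Without dKO replicate 2 the treated female counts were 31 lower and 10 higher, against 10.7% and 9.83% of all genes. The fatty acid ω-hydroxylases of the Cyp4a family, classical PPARA targets, were the lowest. Cyp4a14 read 7.92, 7.24, 8.45 and 7.89 in untreated wild-type and 4.92, 4.44, 4.84 and 4.55 in untreated dKO females (-3.19 ± 0.57, adjusted p = 0.00106). It differed by -5.74 ± 0.57 in treated females and -5.93 ± 0.57 in treated males. Cyp4a10 was lower by -2.51 ± 0.28 and -3.84 ± 0.28 in treated females and males, and Cyp4a31 by -2.50 ± 0.35 in females. In dKO males Cyp4a31 was not well above background on any array, so that it was at least 11.0-fold lower there (means -1.72 and -6.07, adjusted p = 4.61e-08), a bound set by the dimmest signals above background on those arrays. Fabp2, Lpin1 and Retsat were the other lowest genes in untreated females (-1.61, -1.51 and -1.21), Acnat2 in treated females (-1.70), and Fabp2 in treated males (-2.95).

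The further genes with the largest positive differences in treated females were Fgf21, a fasting hormone under PPARA control, and the lipid droplet and lipid binding genes Cidec and Fabp4. Fgf21 read -1.98, -1.92, -2.76 and -2.22 in wild type and 0.75, 4.83, 0.38 and 3.71 in dKO, with no overlap (4.64 ± 0.85, adjusted p = 0.000534). Replicates 2 and 4 were again the high arrays, as they were for Cidec (adjusted p = 0.000275) and Fabp4 (2.57 ± 0.58). These arrays raised the differences, whose sizes without them are not given here. For Fgf21 dKO replicates 1 and 3 read 0.75 and 0.38, still above every wild-type array. Acot5 was not well above background on any treated wild-type female array and was at least 1.19-fold higher in dKO, on 3 of 4 arrays (adjusted p = 0.00196). Pdk3, Oxct1 and Acad9 were higher in untreated dKO females (1.33, 0.77 and 0.40). Pdk3, Bdh2, Cpt1c and Oxct1 were the highest in treated dKO males (1.65, 1.23, 1.22 and 1.16). Pdk3 was above background on 2 of 4 wild-type arrays in both comparisons. Of 26 genes of peroxisome assembly and function in the list, 1 was lower in untreated dKO females, 16 in treated dKO females and 11 in treated dKO males, and 0 were higher. Of all genes 4.59%, 16.4% and 10.9% were lower, and without dKO replicate 2 the treated female count was 10, against 10.7%.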

How the data were processed

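Agilent 4x44K single-colour (Cy3) arrays measured liver RNA in 24 samples on 6 slides of 4. RNA was amplified and labelled, per the labels' protocols, which mention liver samples and sorted cells without saying which applied. The deposited files hold spot intensities, background-subtracted by Agilent Feature Extraction, version 10.5.1.1 per the file headers and 9.53 per the submitters' processing notes. A file in which the authors deposited signed fold changes was compared for sign with the differences found here and agreed for 37 to 39 of the 39 genes in each of the pairwise comparisons.

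On each array 72 to 127 of 43379 spots marked as outliers were dropped, and spots of 1 probe were averaged. Log2 processed signal minus the array's 75th percentile (433 to 959.9) was used. A probe had to exceed background clearly on 4 or more of the 24 arrays, and each gene was represented by its brightest probe. Between 50.4% and 68.4% of spots were well above background, and the number of arrays limits the precision. Gene names came from RefSeq accessions where 26690 of 41174 probes matched. Of the 39 genes, 11 had more than 1 probe kept, whose differences had opposite signs in 1 or 2 genes per genotype comparison.

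A linear model of 6 group means was fitted over all 24 arrays with limma 3.58.1 (R 4.3.3) and moderated variances. Adjusted p are Benjamini-Hochberg values over 19290 genes within each comparison, with 0.05 as the threshold. The fit was also run on simulated data, the outcome of which is not given here. Promoter windows are from RefSeq (GRCm38.p6). Plots used matplotlib 3.10.9 and pandas 2.3.3 under Python 3.11.15.

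The 39 genes, the further pathway genes and the marker lists were chosen with earlier results of these data known. Arrays are shown for Ppara, Ppargc1a, Cpt1a and the genes called with a log2 difference of 1 or more, and for up to 4 further genes per role. Of the further pathway genes, up to 4 called in each direction with the largest differences are named per genotype comparison. The alternatives were the mean of probes, a fit of the groups compared alone, each array left out, normexp background (offset 50), quantile or median scaling, other filters, replicate, slide or array position in the fit, trend and robust variances, and outlier spots kept. Leaving out treated dKO females 2 and 4 was added after the data were seen.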

Additional observations from a re-analysis of the deposited data

Results flagged for a closer look

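In 5 of 234 sets of 4 arrays (39 genes in 6 groups), 1 array lay apart from the other 3 by more than Dixon's critical value. Chance alone gives this for about 1 in 20 sets of 4 independent values. Replicate 4 may not be independent of the others, so that rate need not apply here. Ppara was highest in untreated wild-type female replicate 1, at 5.04 beside 4.51 to 4.59. Decr1 was highest in untreated dKO female replicate 1, at 0.23 beside -0.08 to -0.03. In treated dKO males Crat was lowest in replicate 1, at 1.06 beside 1.33 to 1.36, as was Etfb, at 6.87 beside 7.21 to 7.23. Ehhadh was lowest in treated dKO male replicate 3, at 2.85 beside 3.21 to 3.22.

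The genotype difference changed with treatment in females for Acot1 (2.64), Acot2 (1.61) and Ehhadh (-0.95), each by the interaction term of the limma fit. By the same kind of test it differed between treated males and females for Acot2 (-2.53), Pdk4 (-1.93), Cd36 (-1.39), Crat (-1.35), Ppara (0.82) and Acaa2 (0.76). In the 4 genes with the more negative male difference, Acot2, Pdk4, Cd36 and Crat, treated dKO female replicate 2 was the highest of its group, at -1.49, 1.07, 3.01 and 3.07. The same array had the lowest hepatocyte marker mean of all 24, 3.67, and without it 3 of the 39 genes were called in this comparison of the sexes. Without it and replicate 4, Acot2 was called.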

How the results depend on the processing

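Of 132 called results for the 39 genes, 131 kept their direction under the alternatives run for them, and 35 kept their call under all of these. The alternatives were 14 other settings and leaving out, in turn, each array of the groups compared. The filter on all 24 arrays could be run for 126 of the results, and leaving out treated dKO females 2 and 4 bore on 68. The exception in direction was Cpt2 in treated males, at 0.05 with array position in the fit. With position, by genotype 7 genes were called in untreated and 0 in treated females and 1 in treated males, 2 by treatment in dKO, 1 and 3 by sex in wild type and dKO, and 0 and 2 by the interactions with treatment and sex. The medians were then -0.11 (genotype, treated females), 0.01 (treated males), -0.51 (treatment, dKO) and 0.31 (interaction with treatment). Position largely followed group.

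Replicate numbers did not pair the samples (correlations -0.34 to 0.34). With the replicate block the genotype comparisons called 9, 18 and 13 genes, treatment 32 and 27, sex 2 and 13, and the interactions 3 and 4. In untreated females normexp background and no filter each called 8 genes and slide as a fixed block 9. In treated females the groups compared alone called 4. Normexp called 9 in treated males and 1 in the interaction with treatment, where quantile scaling called 5. In the sex comparison in dKO the groups alone called 2 and the fixed slide block 6. In the interaction with sex the groups alone, no filter and the fixed slide block each called 3. Quantile medians were -0.22 (genotype, treated females), -0.68 (treatment, wild type) and -0.41 (treatment, dKO). Without treated dKO females 2 and 4 the counts were 6 (genotype), 3 (sex) and 1 (interaction with sex), and the medians -0.27, -0.02 (sex) and -0.51 (treatment).

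With single arrays left out, the counts ranged from 8 to 18, 11 to 27 and 10 to 17 by genotype, 24 to 34 and 25 to 30 by treatment, 1 to 3 and 6 to 18 by sex, and 3 to 6 and 3 to 11 for the interactions. Over all genes and the settings other than single arrays, the genotype comparisons called 728 to 2824 (1880 as reported), 22 to 7150 (5745) and 134 to 5225 (4868) genes, treatment 1876 to 3482 (3304) and 285 to 7742 (7290), sex 484 to 1379 (1171) and 1065 to 4117 (3957), and the interactions 4 to 1492 (989) and 708 to 2604 (2424). The lowest counts came from the fit with position, except in untreated females and treated wild-type females (normexp) and in the sex comparison in dKO (females 2 and 4 left out).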
